A study of Danio rerio with 8 samples.

Results

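Interleukin-4 (IL4) was compared with phosphate-buffered saline (PBS) in GFP-positive cells sorted from adult zebrafish brain, a fraction in which the her4.1 promoter marks radial glia. The comparison used the 4 GFP-positive libraries, 2 after each injection, of the 8 libraries of the series. All 31388 genes of the deposited count table entered, and 20508 had enough counts to be tested. Every fish, controls included, carried the reporter Tg(her4.1:EGFP), was 6 mpf (months post fertilization), received a brain injection and was sampled at 24 hpi (hours post injection). The other groups were the GFP-negative cells after PBS and after IL4, again 2 libraries each, and they are used here to show which transcripts belong to the sorted fraction. The sort rests on 1 promoter, and GFP protein can outlast its transcript, so the fraction can hold cells that have recently left the radial glial state. No uninjected group was analysed here. The design text of the series names other injections (CPP or AB42), a later time and more replicates, and the library labels were followed here. Whether a replicate is 1 fish or a pool is not given in the labels, so p-values measure the spread between these libraries, which may be technical.

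Radial glia line the ventricles of the adult zebrafish brain and act as its neural stem and progenitor cells, kept in that state in large part by Notch signalling through her genes. They also do work that astrocytes do in mammals, such as glutamate uptake, glutamine synthesis and fatty acid binding. IL4 is a cytokine of type 2 immunity that acts on its receptor through JAK kinases and STAT6, and in mammals it drives microglia and macrophages towards a repair-type state.

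The GFP-positive libraries held 20840181 to 26582271 counts. Levels are given as CPM, read counts divided by the TMM-scaled library total, and a fold change is log2 with its standard error (SE). Of 45 radial glial markers 41 were well expressed in the fraction. Their summed level was 81331 and 80037 CPM in the PBS GFP-positive libraries, against 7286 and 7168 CPM in the PBS GFP-negative ones. Markers listed for other cell types were also detected in the PBS GFP-positive libraries. There oligodendrocyte markers summed to 3690 and 3537 CPM, ependymal markers to 3164 and 3157 CPM, microglial markers to 1384 and 1383 CPM and neuronal markers to 1320 and 1301 CPM. Erythrocyte markers summed to 296 to 322 CPM, lymphocyte markers to 13.9 to 21.6 CPM and neutrophil markers to 13.1 to 18.3 CPM across the 4 GFP-positive libraries. In the PBS GFP-negative libraries the ependymal sum was lower (2562 and 2620 CPM), as was the erythrocyte sum (148 and 162 CPM). Of 2 erythrocyte markers with at least 10 CPM there, 1 stood at 272% of that level in GFP-positive cells and the other at 0.863%. Those 2 sums alone therefore do not show other cells in the fraction.

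IL4 changed the expression of 5889 of 20508 genes in GFP-positive cells at an adjusted p under 0.05 (edgeR quasi-likelihood test, Benjamini-Hochberg adjustment), which is 28.7% of those tested. Of these, 2847 rose (13.9% of all tested) and 3042 fell (14.8%), and 1267 changed by at least 2-fold, 662 of them upward. The share of rises among the changed genes was 48.3%, and it was 40.8% with RLE size factors and 59.1% with library totals as the scaling. The PBS and IL4 values did not overlap for 12271 genes (59.8%). For 3843 genes (18.7%) the IL4 change differed between GFP-positive and GFP-negative cells by the interaction test. In GFP-negative cells 5016 genes (24.5%) changed.

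Genes were split by where their transcripts were found. A well expressed gene had a mean of at least 10 CPM over the 4 GFP-positive libraries and was no more than 2-fold lower there than in GFP-negative cells, averaged over PBS and IL4. A GFP-negative-high gene was at least 8-fold lower in GFP-positive cells. The 8194 well expressed genes took 93.9% to 94.5% of the counts of each GFP-positive library, and 3682 of them (44.9%) changed, 1524 upward and 2158 downward. Those changes were small: the median size among the changed genes was 0.48 on the log2 scale, and 160 genes passed with at least 2-fold, 79 upward and 81 downward. The 1871 GFP-negative-high genes took 0.451% to 0.525% of counts. Of these, 468 changed, 170 upward and 298 downward, with a median size of 1.77, and 364 passed with at least 2-fold. The 10443 genes in neither class held 1739 changes, 743 of them of at least 2-fold. Most of the changes of at least 2-fold therefore lay outside the well expressed class. The median SE was 0.12 for well expressed genes, 0.67 for GFP-negative-high genes and 0.34 for genes in neither class. With a larger SE only larger changes pass, so sizes among the changed genes cannot be compared directly between classes. The class limits use the levels after IL4 as well, so a large rise moves a gene out of the GFP-negative-high class and a large fall moves it in. The well expressed limit is a mean over both groups, so a gene can reach it through the group where it is high. The split by direction within a class is for these reasons a description.

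**Figure D1:**
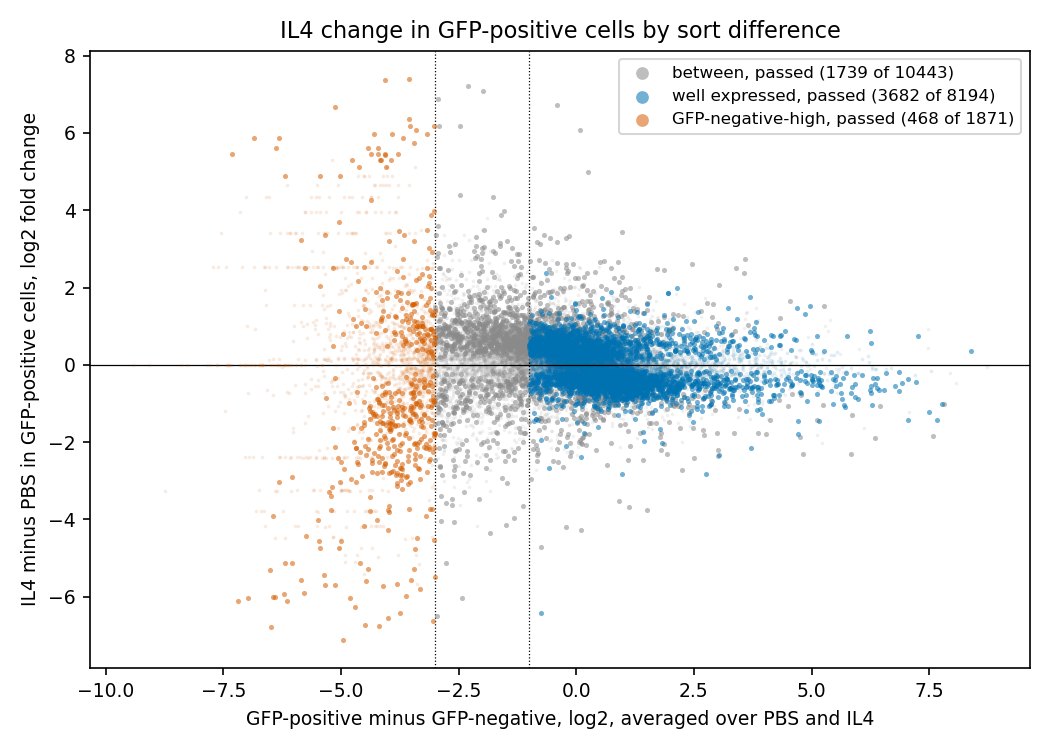
Each point is 1 of 20508 genes, placed by its log2 difference between GFP-positive and GFP-negative cells (x axis) and its log2 fold change after IL4 in GFP-positive cells (y axis), with strong points for genes that passed and dotted lines at the class limits. The 3682 well expressed genes that passed (blue) lie in a narrow band around 0, and the 468 GFP-negative-high genes that passed (orange) spread much wider, more of them downward. The median SE of the GFP-negative-high class was 0.67, against 0.12 for well expressed genes, so only larger changes could pass there.

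The largest rises among well expressed genes fell on innate immune, lipid uptake, clock and cell surface genes. Of the genes below, DHX58, c4, SVEP1 and ST8SIA2 were under 10 CPM after PBS. They reached the class mean through the IL4 libraries. The low-density lipoprotein receptor gene ldlra (ENSDARG00000029476, GRCz10 chr3:19149569-19173949) stood at 17.5 and 15.3 CPM after PBS and at 55.9 and 64.3 CPM after IL4. Both IL4 libraries were far above both PBS libraries, and the log2 fold change was 1.87 ± 0.13 (SE, n = 2 against 2, adjusted p = 2.6e-09). The complement gene c4 (ENSDARG00000015065, chr15:32493907-32525550) went from 8.55 and 8.0 to 29 and 36.6 CPM, a rise of 1.98 ± 0.18. DHX58 (ENSDARG00000089463, chr3:17537381-17562065), a sensor of viral RNA, went from 8.59 and 9.62 to 32.6 and 35 CPM, a rise of 1.90 ± 0.16. For these 3 genes the groups were apart, as the choice of genes required. The rise was larger than in GFP-negative cells, where DHX58 rose by 0.51 and ldlra and c4 did not pass.

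Clock genes moved in different directions. The clock gene PER2 went from 32.6 and 37.0 to 120 and 113 CPM in GFP-positive cells, a rise of 1.75 ± 0.08, and rose by 0.88 in GFP-negative cells. The related clock gene PER1 went from 36.8 and 36.0 to 10.2 and 11.5 CPM, a fold change of -1.74 ± 0.12, and fell by 1.003 in GFP-negative cells. The gene nfil3-5, of the NFIL3 family of bZIP repressors, rose by 1.58 ± 0.11 and in GFP-negative cells by 1.28, and that pair of changes did not differ by the interaction test (adjusted p = 0.2). ST8SIA2, which adds polysialic acid to the adhesion molecule NCAM on young neurons, went from 5.53 and 7.01 to 20.1 and 17.7 CPM, a rise of 1.60 ± 0.18. The matrix genes SVEP1 and ADAMTS8, a secreted metalloprotease gene, rose by 1.76 ± 0.21 and 1.53 ± 0.23, and the myosin gene MYO18A by 1.58 ± 0.16. In GFP-negative cells ADAMTS8 and MYO18A fell, by 1.52 and 1.24. The genes si:ch211-183d5.2 and si:dkey-183j2.10, which carry no functional name in the table, rose by 1.47 ± 0.15 and 1.46 ± 0.05, the latter from 271 and 275 to 762 and 741 CPM.

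Falls among well expressed genes reached further than rises, and the leading ones were a neuropeptide and genes of the retinoid cycle. Of the genes below, oxt, syt5a, GPR19, ESM1, NR2E3 and SLC6A2 were under 10 CPM after IL4. They reached the class mean through the PBS libraries. The neuropeptide gene oxt (ENSDARG00000042845, chr5:71303113-71308749), which encodes the fish form of oxytocin, stood at 129 and 122 CPM after PBS and at 1.31 and 1.60 CPM after IL4. That is 86.0-fold lower, a log2 fold change of -6.43 ± 0.15 (adjusted p = 1.9e-16). In GFP-negative cells oxt fell from 48.3 to 10.6 CPM, so its PBS level was higher in the GFP-positive cells and its IL4 level lower. Without any 1 of the GFP-positive libraries its value ran from -6.63 to -6.34.

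The retinoid isomerase gene RPE65 (ENSDARG00000007480, chr2:2316199-2331029) went from 96.8 and 105 to 13.5 and 15.0 CPM, a fall of -2.82 ± 0.12. Other genes of retinoid handling moved with it. The retinol dehydrogenase gene rdh5 went from 152 and 155 to 34.4 and 35 CPM (-2.15 ± 0.09). The opsin-like gene RGR, which makes 11-cis retinal in light in mammals, went from 58.0 and 63.8 to 13.2 and 17 CPM (-2.01 ± 0.17), and the retinal-binding protein gene rlbp1b from 123 and 100 to 33.2 and 31.4 CPM (-1.79 ± 0.12). In PBS libraries all 4 were higher in GFP-positive than in GFP-negative cells, where RPE65 stood at 9.73, rdh5 at 15.8, RGR at 7.02 and rlbp1b at 2.91 CPM. RGR rose by 0.56 in GFP-negative cells while it fell in GFP-positive ones. The photoreceptor nuclear receptor gene NR2E3 fell too, from 35.7 and 43.8 to 5.95 and 5.19 CPM (-2.83 ± 0.17), and by 4.64 in GFP-negative cells. Summed pineal and photoreceptor markers stood at 301 and 314 CPM after PBS and at 120 and 121 CPM after IL4 in GFP-positive cells. That list includes RPE65 itself, which gave 96.8 and 105 CPM of the sum after PBS and 13.5 and 15.0 CPM after IL4. The part of pineal cells in these falls was not tested. In bulk libraries, fewer cells of a type and less RNA per cell cannot be told apart.

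The other leading falls were of mixed function. FKBP5, a co-chaperone that holds back the glucocorticoid receptor and whose transcription glucocorticoids raise in mammals, went from 145 and 151 to 40.5 and 35.5 CPM (-1.96 ± 0.07), and fell by 1.38 in GFP-negative cells. SLC6A2, the noradrenaline transporter gene, went from 25.5 and 23.0 to 5.63 and 6.74 CPM (-1.97 ± 0.23). The synaptotagmin gene syt5a fell by 2.66 ± 0.19, the gene wu:fj16a03 by 2.09 ± 0.07, the orphan receptor gene GPR19 by 1.77 ± 0.29 and the proteoglycan gene ESM1 by 1.73 ± 0.26. GPR19 stood at 6.72 and 3.31 CPM in the 2 IL4 libraries, which were well apart from each other. The plot of these genes by library shows every pair of groups apart, as the choice of genes required.

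**Figure D2:**
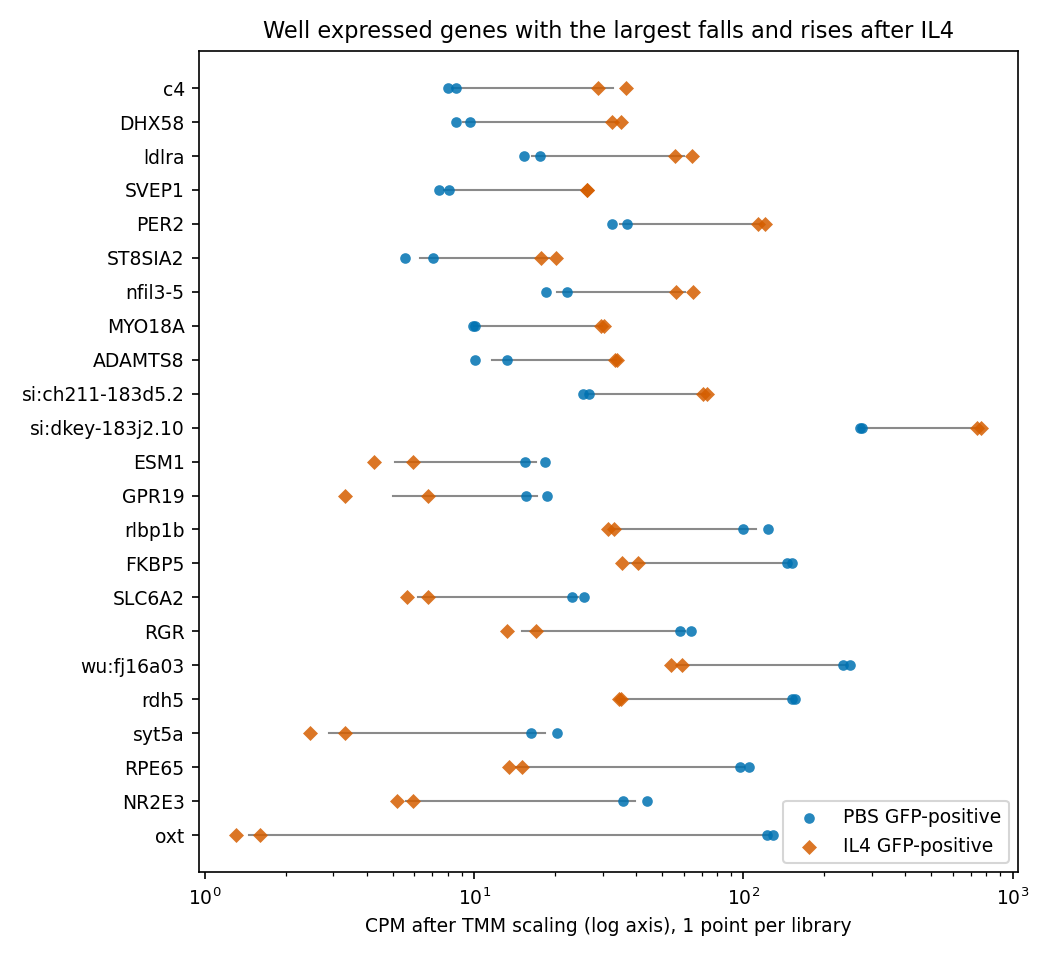
CPM (log axis) of the leading well expressed genes by size of rise and fall, 1 point per GFP-positive library, with a line joining the 2 group means. PBS and IL4 points are apart in each row, as the choice of genes required, and oxt shows the widest gap, from 129 and 122 to 1.31 and 1.60 CPM.

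Ranked by CPM instead of fold, the falls were led by abundant glial and stress genes. FABP7 of chromosome 17, the brain fatty acid-binding protein of radial glia, went from 22400 and 21300 to 14700 and 15000 CPM, a fold change of -0.56 ± 0.04. The heat shock gene hsp70l went from 6350 and 6470 to 2860 and 2920 CPM (-1.15 ± 0.03), and the ARF-family GTPase gene arf4b (ENSDARG00000100339, chr11:42178260-42182065) from 2720 and 2710 to 944 and 1080 CPM (-1.43 ± 0.05). All 3 had groups apart, as the choice of genes required, and hsp70l fell by 0.24 in GFP-negative cells. The bZIP factor genes JDP2 of chromosome 20 and JUNB of chromosome 3 fell by 0.50 ± 0.04 and 0.40 ± 0.03. Of the glial transmitter genes, the glutamate transporter SLC1A2 of chromosome 25 went from 7510 and 7710 to 6000 and 5990 CPM (-0.34 ± 0.04). The glutamine synthetase gene GLUL of chromosome 2 went from 13100 and 13000 to 11400 and 11300 CPM (-0.20 ± 0.03), and it rose by 0.25 in GFP-negative cells. The creatine kinase gene CKB of chromosome 20 fell by 0.30 ± 0.03.

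Rises in CPM were led by PNRC2, atf4b and si:dkey-183j2.10, followed by tubb5. The decapping cofactor PNRC2 rose from 1560 and 1640 to 2240 and 2270 CPM (0.50 ± 0.04), and the integrated stress response factor atf4b from 1330 and 1340 to 1870 and 1880 CPM (0.49 ± 0.03). The beta-tubulin gene tubb5 (ENSDARG00000037997, chr16:10428030-10436679), used by young neurons, went from 471 and 501 to 954 and 951 CPM (0.97 ± 0.04). The PBX-interacting gene pbxip1b rose by 0.83 ± 0.04, or 0.54 with an offset for gene length, and fell by 0.37 in GFP-negative cells. The microtubule-associated gene map1ab, with an exon length of 15906 bases, rose by 0.75 ± 0.04, and by 0.23 with the offset. BTG1, an antiproliferative factor, and the chaperone HSP90AB1 rose by 0.30 ± 0.04 and 0.29 ± 0.04, and with the offset by 0.13 and 0.12. The value of HSP90AB1 was 0.18 without PBS GFP-positive replicate 2.

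Change after IL4 ran with gene length in GFP-positive cells. Well expressed genes were put into 5 equal bins by exon length. The bin with the shortest exon length (71 to 1529 bases) had a median of -0.35, with 71 rises and 917 falls among 1639 genes. The bin with the longest (4262 to 28500 bases) had a median of 0.27, with 717 rises and 75 falls among 1638 genes. The same medians in GFP-negative cells were -0.07 and 0.11, and between replicates of a GFP-positive group they lay from -0.04 to 0.02. The trend between injections was thus larger than that between replicates, and its source was not tested. With an offset for a smooth length trend, 1812 genes rose (8.84% of those tested) and 3265 fell (15.9%). In both fits 4327 genes changed in the same direction. The offset was fitted over all genes in each library and did not remove the whole trend among well expressed genes. With it their median was -0.25 in the shortest bin and -0.04 in the longest. Counts with this offset stand beside those of each list below. Lists with mostly well expressed members are best set against that class, where 1524 of 8194 genes rose and 2158 fell. With the offset 866 of that class rose and 2326 fell. Lists with few well expressed members are best set against all genes tested, of which 13.9% rose and 14.8% fell as fitted.

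**Figure D3:**
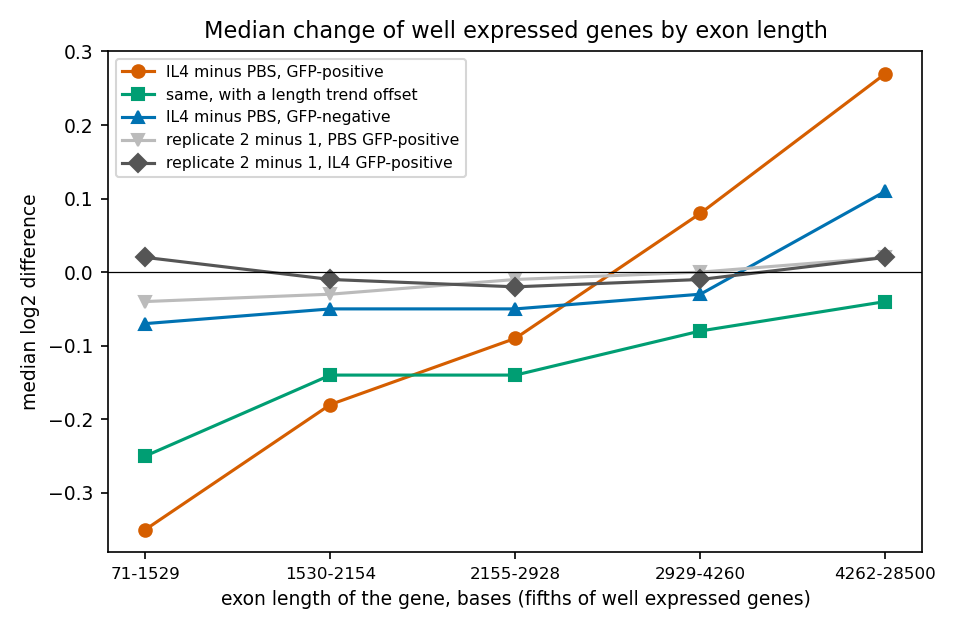
Median log2 difference of well expressed genes in 5 equal bins of exon length (bases), for IL4 minus PBS in GFP-positive cells as fitted and with the offset, in GFP-negative cells, and between the 2 replicates of each GFP-positive group. The GFP-positive line climbs from -0.35 to 0.27 as fitted and from -0.25 to -0.04 with the offset. The replicate lines stay between -0.04 and 0.02.

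Radial glial genes fell as a group, by small amounts. Of 45 markers 28 fell, 4 rose and 13 did not pass, against 14.8% and 13.9% of all genes, with a median of -0.26 against 0.01 for all genes tested. Of the 41 well expressed markers 26 fell and 4 rose, where 2158 and 1524 of 8194 well expressed genes did. The median of that class was -0.06. With the length offset 29 fell and 2 rose. Their sum went from 81331 and 80037 to 64668 and 64586 CPM. The BMP target ID1, a repressor of bHLH factors that marks quiescent glia, went from 519 and 505 to 267 and 272 CPM (-0.93 ± 0.05). The neural proteoglycan gene cspg5b went from 287 and 287 to 154 and 161 CPM (-0.87 ± 0.05) and rose by 0.34 in GFP-negative cells. The secreted phosphatidylserine-binding gene mfge8a fell by 0.68 ± 0.04. The calcium-binding gene S100B fell by 0.39 ± 0.06, while the filament gene GFAP (186 and 181 to 159 and 155 CPM) and the stem cell factor SOX2 (67.5 and 72 to 61.4 and 60.5 CPM) did not pass. GFAP passed with RLE size factors (-0.27), with the length offset (-0.28) and in 6 further alternatives. Markers of the fraction thus kept high levels while most stepped down.

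Neurogenic genes rose. Of 45 tested, 32 rose and 0 fell, against 13.9% and 14.8% of all genes. The median was 0.89, and 30 rose with the length offset. Their sum went from 1519 and 1557 to 2755 and 2746 CPM. EBF3, a transcription factor of differentiating neurons, went from 19.2 and 22.0 to 61.3 and 63.4 CPM (1.60 ± 0.09). ELAVL3, an RNA-binding protein of young neurons, went from 189 and 185 to 456 and 465 CPM (1.30 ± 0.04), and the proneural factor gene NEUROD1 from 96.5 and 101 to 168 and 172 CPM (0.79 ± 0.05). Groups were far apart for each of these genes. Their levels were higher in GFP-negative cells, where ELAVL3 went from 590 to 935 CPM, EBF3 from 54.7 to 95.7 CPM and NEUROD1 from 656 to 991 CPM. Of the 45 genes 14 were well expressed in GFP-positive cells, and 11 of those rose. In GFP-negative cells 23 of the 45 rose and 5 fell, with a median of 0.58. The change differed between fractions for 15 of the 45 by the interaction test.

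Tubulin and microtubule-associated genes, of which 25 were well expressed in the fraction, rose more often than they fell. The gene tubb5 is in this list and in the neurogenic one. Among all genes tested 13.9% rose and 14.8% fell, and with the offset 8.84% and 15.9%. Of 45 tubulin and microtubule-associated genes 28 rose and 5 fell (20 and 8 with the offset), among them DCLK1 at 1.44 ± 0.10 and DPYSL3, a growth cone protein, at 0.91 ± 0.07. Markers of mature neurons rose in 17 of 44 cases and fell in 3 (14 and 9 with the offset). Their sum went from 1320 and 1301 to 1430 and 1492 CPM in GFP-positive cells and from 7492 and 7457 to 9352 and 9339 CPM in GFP-negative ones. For 17 neuronal markers of the GFP-negative-high class, the GFP-positive level was a median of 10.4% of the GFP-negative level after PBS and 10.5% after IL4. The same percentage for single genes went from 31.7% to 49.3% for ELAVL3, from 37.7% to 65.2% for EBF3, from 15.0% to 17.2% for NEUROD1 and from 17.3% to 17% for ELAVL4, an RNA-binding protein gene of neurons. These single genes, all outside the GFP-negative-high class, thus ranged from little change in the percentage to a marked one. The part of neurons or newborn neurons in the neurogenic rise was not tested. Axon guidance genes rose in 34 of 75 cases and fell in 4, and with the offset in 19 and 10. The ephrin gene EFNA3 rose by 1.29 ± 0.15, and the guidance cue NTN1 of chromosome 3 went from 217 and 230 to 122 and 138 CPM (-0.78 ± 0.08).

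Cell cycle genes rose in part. Of 71 tested 17 rose, 2 fell and 52 did not pass, where 13.9% of all genes rose and 14.8% fell. The median was 0.20, and 14 rose and 1 fell with the offset. The G1 cyclin gene CCND1 went from 76.6 and 87.4 to 121 and 130 CPM (0.62 ± 0.09, or 0.37 with the offset), and fell by 0.51 in GFP-negative cells. The cell cycle inhibitor gene cdkn1a went from 42.0 and 37.5 to 14.6 and 17.8 CPM (-1.30 ± 0.16). The replication clamp gene PCNA went from 144 and 135 to 167 and 181 CPM (0.32 ± 0.06), and without IL4 GFP-positive replicate 2 its call ended (0.20). The proliferation marker mki67 went from 18.2 and 17.8 to 26.1 and 25.5 CPM (0.52 ± 0.14), and its call ended with the length offset (0.15). It ended as well when PBS GFP-positive replicate 2 (0.44) was left out, or either of the IL4 GFP-positive libraries (0.45 without replicate 1, 0.48 without replicate 2).

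Genes of stem cell signalling pathways moved in both directions. Of 41 Notch pathway genes 14 fell and 10 rose, and with the offset 13 and 3. Of the 26 well expressed ones 11 fell and 5 rose, where 2158 and 1524 of 8194 well expressed genes did. Their share of rises was near that of the class. The Notch effector her4.1, source of the reporter's promoter, went from 1380 and 1320 to 988 and 964 CPM (-0.47 ± 0.04). Its neighbour her4.2 fell by 0.26 ± 0.04 and her8a by 0.89 ± 0.11, and the near-identical her4 genes may share reads. BMP and Id genes fell in 9 and rose in 9 of 59 cases (7 and 7 with the offset), shares near the 14.8% and 13.9% of all genes. The BMP antagonist nog2 went from 160 and 172 to 88.8 and 72.6 CPM (-1.04 ± 0.09), id2b fell by 0.59 ± 0.05, and skib, a gene for a corepressor of SMAD proteins, rose by 0.82 ± 0.09. Wnt genes rose in 17 and fell in 6 of 60 cases (15 and 9 with the offset), against 13.9% and 14.8% of all genes. The Wnt target SP5 rose by 1.36 ± 0.18 and the Wnt effector LEF1 by 0.77 ± 0.11, both in neither expression class, while the ligand gene WNT4 went from 52.2 and 50.2 to 23.7 and 21.6 CPM (-1.18 ± 0.17). FGF and ERK feedback genes rose in 8 and fell in 9 of 38 cases (6 and 11 with the offset). Of the 23 well expressed ones 6 rose and 6 fell, where 1524 and 2158 of 8194 well expressed genes did, so their share of falls was near that of the class. Single genes were the phosphatase gene DUSP2 at -1.05 ± 0.06 and the ETS factor gene etv5a at 0.68 ± 0.06. DUSP2 rose by 0.36 in GFP-negative cells.

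Cytokine signalling genes did not move as a single block. Of 47 genes of IL4 receptor, JAK, STAT and SOCS families, 15 rose and 6 fell (9 and 6 with the offset). As fitted, the share that fell was under the 14.8% of all genes. STAT3 went from 43.6 and 42.5 to 74.0 and 75.6 CPM (0.80 ± 0.09), the kinase gene JAK1 rose by 0.76 ± 0.07, and il6st, the shared receptor subunit of the IL6 family, by 0.69 ± 0.08. With the offset JAK1 rose by 0.43 and il6st by 0.32. The IL4 receptor gene il4r.1 stood at 13.9 and 15.6 CPM after PBS and 15.9 and 16.8 CPM after IL4 and did not pass (0.15 ± 0.14), while it fell by 1.73 in GFP-negative cells. The STAT6 gene stat6 went from 6.72 and 8.26 to 11.8 and 9.77 CPM (0.53 ± 0.19, adjusted p = 0.039), and fell by 1.11 in GFP-negative cells. The GFP-positive call ended in 11 of 16 alternatives, including the length offset (0.35) and the fits without PBS GFP-positive replicate 1 (0.33), IL4 GFP-positive replicate 1 (0.33) and IL4 GFP-positive replicate 2 (0.60). Interferon response genes rose in 18 of 45 cases and fell in 0 (15 and 0 with the offset), against 13.9% and 14.8% of all genes. Among the rises was the antiviral gene RSAD2, from 36.2 and 39.4 to 78.2 and 73.9 CPM (1.01 ± 0.09). RSAD2 rose by 1.13 in GFP-negative cells too.

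Cytokine and chemokine genes fell more often than they rose, in 23 against 7 of 55 cases (24 and 5 with the offset). Among the 13 members well expressed in the fraction 7 fell and 3 rose, so most of the falls were in genes outside that class. The chemokine gene cxcl18b went from 868 and 821 to 470 and 479 CPM (-0.83 ± 0.05) and CXCL14 from 537 and 507 to 310 and 297 CPM (-0.78 ± 0.05), both well expressed in the fraction. The NF-kB inhibitor gene nfkbiab, itself a target of NF-kB, went from 931 and 884 to 443 and 478 CPM (-0.98 ± 0.05). Of the 55 genes 25 were GFP-negative-high.

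Immediate early and stress genes moved in both directions, with more falls. Of 54 tested 29 fell and 13 rose (30 and 11 with the offset), with a median of -0.25, and their sum went from 55228 and 54241 to 45443 and 45022 CPM. The heat shock gene hsp70.1 (ENSDARG00000029688, chr3:25981914-25984688) went from 1550 and 1540 to 509 and 496 CPM (-1.62 ± 0.04), and the small heat shock gene HSPB1 from 1830 and 1740 to 775 and 776 CPM (-1.20 ± 0.04). The inflammatory bZIP factor gene CEBPB fell by 0.79 ± 0.04, and PER1, described above, is also in this list. Among the rises were BTG1, described above, the orphan nuclear receptor gene NR4A3 (0.64 ± 0.06, or 0.46 with the offset) and the AP-1 factor gene FOSL2 (0.42 ± 0.05, and 0.12 with the offset, where its call ended), the last pair chosen after their values were seen. NR4A3 did not pass in GFP-negative cells (-0.10), and FOSL2 fell there by 0.41. These genes also respond to tissue dissociation, whose part was not tested. Of 41 unfolded protein response genes 16 fell and 2 rose (18 and 2 with the offset), with the translocon subunit SSR4 at -0.78 ± 0.06 and the chaperone cofactor SDF2L1 at -0.76 ± 0.10. Of 43 genes of p53 signalling and apoptosis 12 fell, the growth arrest gene GADD45A by 0.67 ± 0.08, and 9 rose, the DNA damage recognition gene DDB2 by 1.03 ± 0.12 (12 and 7 with the offset). Of these 43, 35 were well expressed, the class in which 2158 of 8194 genes fell and 1524 rose. Of the unfolded protein response genes 35 were in that class, and 16 of those fell and 2 rose. Of the immediate early and stress genes 44 were in it, and 26 of those fell and 9 rose. Of 52 glutathione and NRF2 target genes 21 fell and 2 rose, with or without the offset.

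Energy metabolism genes showed the most uniform fall of any list. Of 86 nuclear genes of oxidative phosphorylation 82 fell and 0 rose, with a median of -0.60, and 79 fell with the length offset, at a median of -0.50. Their median exon length was 871 bases, within the shortest bin, where 917 of 1639 well expressed genes fell. With the offset the well expressed genes of that bin still had a median of -0.25. The cytochrome oxidase subunit COX7C went from 620 and 586 to 329 and 356 CPM (-0.81 ± 0.05) and the ATP synthase subunit atp5mc1 from 454 and 458 to 290 and 297 CPM (-0.64 ± 0.05). In GFP-negative cells 19 of the 86 fell, with a median of -0.13, and the change differed between fractions for 67. The 13 mitochondrially encoded genes did not follow: 4 fell, 2 rose, and with the offset 2 fell and 6 rose. Of 47 proteasome genes 31 fell and 2 rose (29 and 0 with the offset), with the core subunits PSMB1 at -0.71 ± 0.05 and PSMB6 at -0.69 ± 0.08 and the assembly factor POMP at -0.48 ± 0.06. Of 79 ribosomal protein genes 42 fell and 4 rose, or 17 and 8 with the offset, with RPL29 at -0.43 ± 0.07 and RPL4 at 0.24 ± 0.04. With the offset these shares were near or under those of the well expressed class, where 2326 of 8194 genes fell and 866 rose. In GFP-negative cells 77 of the 79 fell, with a median of -0.36 against -0.16 in GFP-positive cells. The change differed between fractions for 39 of the 79.

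Glycolysis and lipid genes were mixed. Of 70 glycolysis and hypoxia genes 22 fell and 10 rose (26 and 4 with the offset), with GAPDHS from 4240 and 4250 to 3170 and 3130 CPM (-0.43 ± 0.03) and ENO1 of chromosome 6 at -0.53 ± 0.05. PDK2, a kinase that restrains pyruvate dehydrogenase, rose by 0.56 ± 0.06. Of 48 fatty acid oxidation genes 17 fell and 5 rose (16 and 4 with the offset), among the rises the uncoupling protein gene UCP1, from 317 and 349 to 562 and 547 CPM (0.74 ± 0.06). Cholesterol synthesis and uptake genes rose in 20 of 43 cases and fell in 3 (16 and 9 with the offset). The synthase gene HMGCS1 went from 95.4 and 110 to 182 and 184 CPM (0.83 ± 0.07), and fell by 1.18 in GFP-negative cells. The sterol sensor partner insig1 rose by 0.49 ± 0.05, and MYLIP, a ligase gene whose product removes the LDL receptor, by 0.57 ± 0.06, beside the rise of ldlra above.

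Chromatin and matrix genes followed gene length in part. Of 102 chromatin regulators 75 rose and 0 fell, with a median of 0.52, and with the offset 29 rose and 3 fell, with a median of 0.18. Their median exon length was 6046 bases, within the longest bin. The remodeller CHD7 rose by 0.87 ± 0.06, the DNA methyltransferase DNMT3A by 0.87 ± 0.08 and the histone demethylase KDM1A by 0.73 ± 0.07, and with the offset by 0.42, 0.59 and 0.52. Of 77 genes of extracellular matrix and glial adhesion 17 rose and 10 fell, and with the offset 11 and 18. As fitted, the share that fell was under the 14.8% of all genes. The link protein gene HAPLN4 went from 61.7 and 71.5 to 120 and 125 CPM (0.88 ± 0.10), the matrix protein gene SPARC from 363 and 352 to 245 and 233 CPM (-0.58 ± 0.06), and the proteoglycan gene DCN rose by 0.39 ± 0.07. DCN fell by 0.60 in GFP-negative cells.

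**Figure D4:**
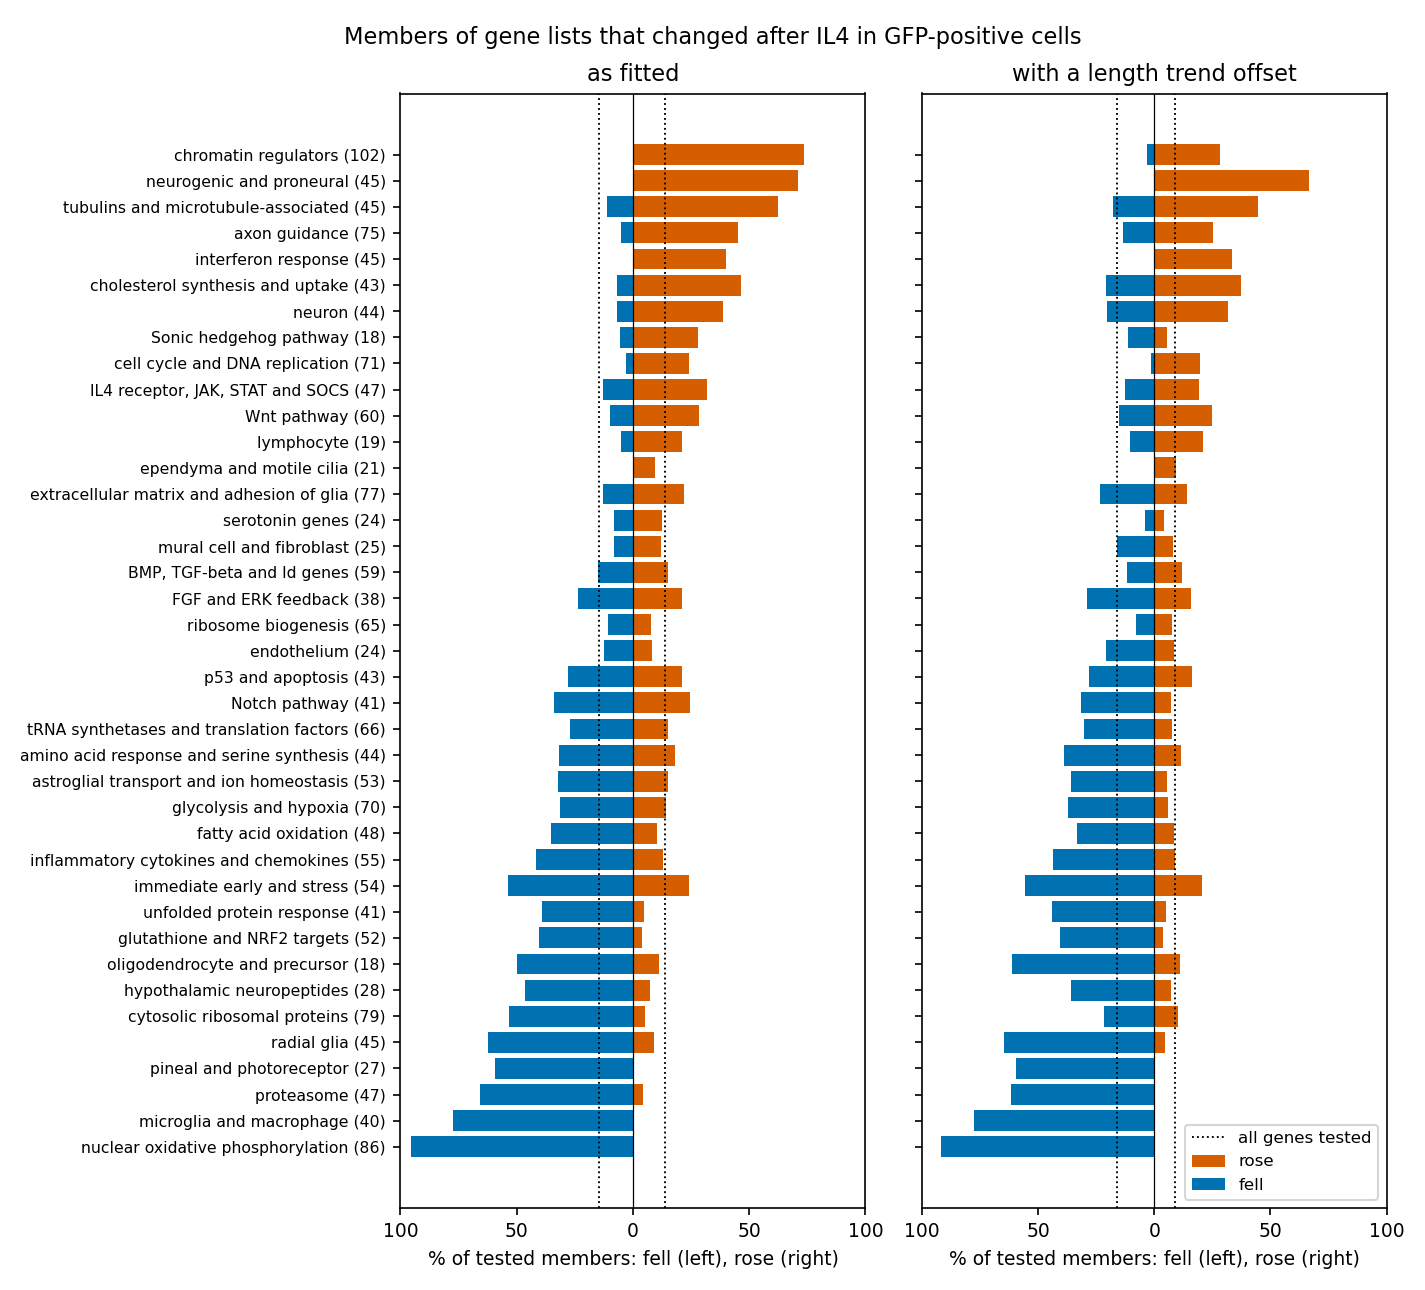
Share of the tested members (number in brackets) of each list with at least 18 tested genes that fell (left, blue) or rose (right, orange) after IL4 in GFP-positive cells, as fitted and with the length trend offset, with dotted lines at the shares among all genes tested. Oxidative phosphorylation (82 of 86 lower) and neurogenic genes (32 of 45 higher) keep their bars in both panels, and chromatin regulators drop from 75 to 29 rises. The offset leaves a part of the length trend among well expressed genes.

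Most of the changed transcripts of the GFP-negative-high class were at low levels in GFP-positive cells. Of the 468 GFP-negative-high genes that changed, 160 were below 1 CPM in both GFP-positive groups, 170 reached 1 to 5 CPM and 138 reached at least 5 CPM. In GFP-negative cells 281 of the 468 changed in the same direction, and for 165 the change differed between the fractions. For 515 genes of this class with at least 10 CPM in GFP-negative cells after each injection, the GFP-positive level was a median of 7.81% of the GFP-negative level after PBS and 8.26% after IL4. The range was 0.544% to 22.4% after PBS and 0.327% to 20.8% after IL4. The class limit bounds the percentage averaged over both injections, so near-equal medians are in part set by the choice of genes. These percentages give the ratio of levels, and whether the transcripts came from carried-over cells or RNA was not tested.

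Microglial genes fell in both fractions. Of 40 tested 31 fell and 0 rose, with or without the offset, with a median of -1.08, and in GFP-negative cells 35 fell and 0 rose, with a median of -1.71. The change differed between fractions for 18 of the 40 by the interaction test. Their sum went from 1384 and 1383 to 637 and 650 CPM in GFP-positive cells and from 11786 and 12237 to 3822 and 3785 CPM in GFP-negative cells. For 22 of them in the GFP-negative-high class, the GFP-positive level was a median of 7.22% of the GFP-negative level after PBS and 7.76% after IL4. For all 27 with at least 10 CPM in GFP-negative cells after each injection, the medians were 7.52% and 9.2%. The apolipoprotein gene apoeb went from 466 and 454 to 136 and 125 CPM (-1.82 ± 0.04), and from 3830 to 773 CPM in GFP-negative cells. The class II invariant chain gene cd74a went from 240 and 237 to 115 and 119 CPM (-1.02 ± 0.04), the complement gene c1qc from 9.14 and 10.1 to 1.58 and 1.38 CPM (-2.69 ± 0.18), and the chemokine gene ccl34b.1 from 43.7 and 41.5 to 9.39 and 11.8 CPM (-2.01 ± 0.10). The falls of apoeb and cd74a were larger in GFP-negative cells, by 0.49 and 0.32 (adjusted p = 5.6e-06 and 0.00049). The changes of c1qc, ccl34b.1 and the apolipoprotein gene apoc1 (-2.05 ± 0.09) did not differ between fractions by the interaction test (adjusted p = 0.2, 0.9 and 0.7).

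Pineal and photoreceptor genes fell in 16 of 27 cases with 0 rises, with or without the offset, and in 24 of 27 in GFP-negative cells. The cone arrestin gene ARR3 went from 14.0 and 14.6 to 0.382 and 0.884 CPM (-4.49 ± 0.23), the transducin gene GNAT1 from 9.51 and 8.58 to 1.47 and 1.77 CPM (-2.48 ± 0.20), and the calcium sensor gene RCVRN from 6.31 and 6.80 to 0.874 and 0.884 CPM (-2.89 ± 0.22). The retinol-binding gene rbp4l (-2.05 ± 0.14) and aanat2, the melatonin rhythm enzyme of the pineal (-3.62 ± 0.23), fell too. In GFP-negative cells aanat2 went from 112 to 1.72 CPM and GNAT1 from 169 to 17 CPM. For 6 members of the GFP-negative-high class the GFP-positive level was a median of 6.95% of the GFP-negative one after PBS and 13.2% after IL4. The phosphoinositide-binding gene plekhf1 fell by 2.35 ± 0.19, and the endothelial adhesion gene pecam1a by 2.77 ± 0.38 from 2.93 and 1.99 CPM. Of the GFP-negative-high falls, ARR3, GNAT1, RCVRN, plekhf1 and c1qc above reached 5 CPM, the minimum for naming, after PBS and not after IL4. These falls are therefore given as a description. Endothelial markers as a list fell in 3 and rose in 2 of 24 cases in GFP-positive cells (5 and 2 with the offset), and fell in 19 in GFP-negative cells. As fitted, both GFP-positive shares were under those of all genes.

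Oligodendrocyte genes differed between the fractions, and neuropeptide genes fell more often than they rose in both. Of 18 oligodendrocyte lineage genes 9 fell and 2 rose in GFP-positive cells (11 and 2 with the offset), while 8 rose and 5 fell in GFP-negative cells, and the change differed for 11 by the interaction test. The myelin gene plp1b went from 605 and 614 to 454 and 447 CPM (-0.43 ± 0.03) and rose from 4170 to 5780 CPM in GFP-negative cells. The claudin gene cldnk of myelin fell by 0.69 ± 0.06 and rose by 0.22 in GFP-negative cells, and OLIG2, a factor of the oligodendrocyte lineage, went from 102 and 100 to 56.4 and 59.0 CPM (-0.81 ± 0.07). For 5 members of the GFP-negative-high class the GFP-positive level went from a median of 12.4% of the GFP-negative level to 7.79%, lower in each of the 5. Of 28 hypothalamic neuropeptide genes 13 fell and 2 rose in GFP-positive cells (10 and 2 with the offset), and 10 fell and 1 rose in GFP-negative cells. The change differed between fractions for 9 of the 28. Of the 2 rises, adcyap1b went from 81.1 and 82.0 to 108 and 112 CPM (0.43 ± 0.05), and it fell by 0.15 in GFP-negative cells. NPY went from 22.8 and 21.5 to 5.63 and 5.52 CPM (-1.99 ± 0.11) with a fall of 0.21 in GFP-negative cells, and the somatostatin gene sst1.2 from 18.5 and 17.8 to 6.66 and 6.74 CPM (-1.44 ± 0.16) while 0.06 in GFP-negative cells did not pass.

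Rises in the GFP-negative-high class included genes of secretion and excitability. They are given as a description, since SYT2, POU4F2, slc12a5a, pcbp3, CACNA1E and RASGRP3 reached the minimum of 5 CPM for naming after IL4 and not after PBS. The granin gene chgb, a secretory granule protein, went from 10.7 and 11.8 to 26.8 and 28.5 CPM (1.30 ± 0.09), and from 105 to 199 CPM in GFP-negative cells. The EGR corepressor gene NAB1 rose by 1.01 ± 0.15, the sensory neuron factor gene POU4F2 by 1.07 ± 0.19 and the chloride exporter gene slc12a5a by 1.69 ± 0.28. The synaptotagmin gene SYT2 rose by 1.40 ± 0.21 and the RNA-binding gene pcbp3 by 1.64 ± 0.27. The calcium channel gene CACNA1E rose by 1.01 ± 0.23 and the Ras activator gene RASGRP3 by 1.29 ± 0.31. The CACNA1E call ended without IL4 GFP-positive replicate 1 (0.52) and with the length offset (0.59), and the RASGRP3 call without PBS GFP-positive replicate 1 (0.56). Replicates were wide apart for SYT2, at 6.50 and 11.8 CPM after IL4, for RASGRP3, at 1.01 and 3.56 CPM after PBS, and for slc12a5a, at 0.914 and 2.46 CPM after PBS. The value of SYT2 was 0.85 without IL4 GFP-positive replicate 2, and that of slc12a5a 1.05 without PBS GFP-positive replicate 1.

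**Figure D5:**
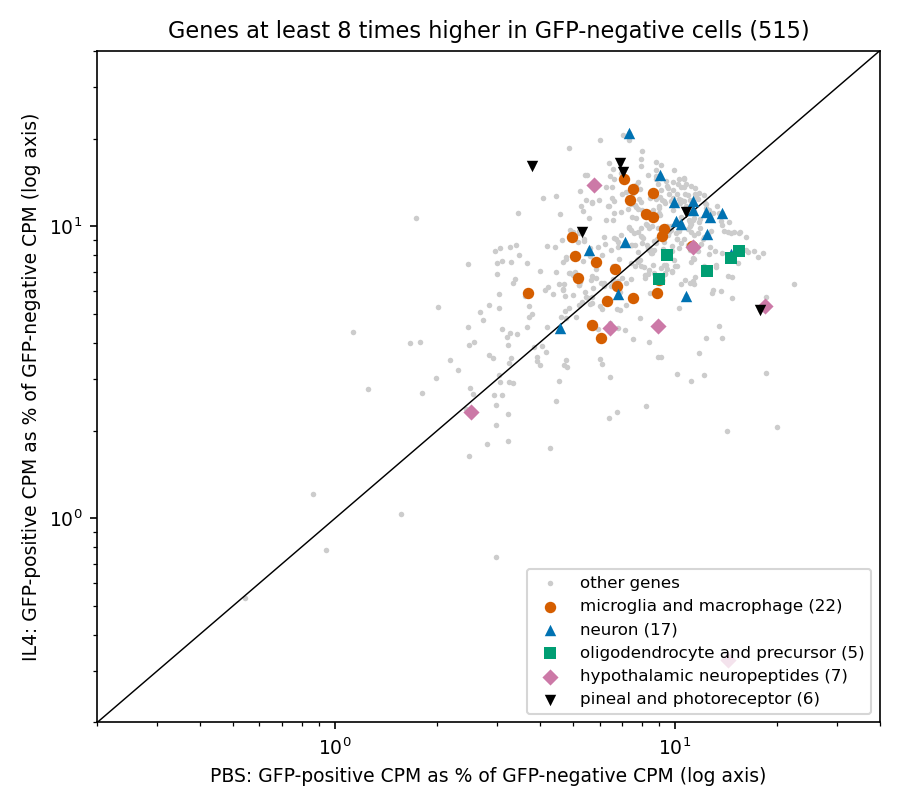
For 515 GFP-negative-high genes, the GFP-positive level as a percent of the GFP-negative level after PBS (x, log axis) and after IL4 (y, log axis), with the line of equal values and 5 marker lists in colour. Microglial (22) and neuronal (17) markers lie on both sides of the line, with medians of 7.22% against 7.76% and 10.4% against 10.5%, and all 5 oligodendrocyte markers lie below it. The class limit bounds the percentage averaged over PBS and IL4, so genes with a large rise in it are not plotted.

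As the series title has it, the study dealt with serotonin and neurotrophin signalling downstream of IL4. Of 24 serotonin genes tested 1 was well expressed in the GFP-positive fraction, and of 14 neurotrophin genes 6 were. The neurotrophin genes summed to 441 and 437 CPM in the PBS GFP-positive libraries, against 405 and 396 CPM in the PBS GFP-negative ones. TPH2, the brain enzyme of serotonin synthesis, went from 7.73 and 4.86 to 2.18 and 1.99 CPM (-1.60 ± 0.25) and from 89.6 to 13.6 CPM in GFP-negative cells. The serotonin receptor gene HTR1A stood at 3.06 and 2.61 CPM after PBS and 1.47 and 1.99 CPM after IL4 (-0.72 ± 0.25, adjusted p = 0.037), a call that ended in 9 of 16 alternatives. It was GFP-negative-high, at 19.8 CPM after PBS and 25.6 CPM after IL4 in GFP-negative cells, where it did not pass. The related gene htr1aa did not pass in GFP-positive cells (-0.195). The neurotrophin gene BDNF, at 3.43 and 2.35 CPM after PBS and 4.1 and 3.75 CPM after IL4, did not pass (0.43 ± 0.23), and it rose by 0.90 in GFP-negative cells. The neurotrophin receptor gene NGFR of chromosome 3, at 25.6 and 24.9 CPM after PBS and 24.1 in both IL4 libraries, did not pass (-0.07 ± 0.12), although it did with the length offset (-0.47). NTRK2, the BDNF receptor gene, was well expressed and went from 192 and 196 to 156 and 159 CPM (-0.30 ± 0.06). The related gene ntrk2b did not pass (0.38 ± 0.21). Of 24 serotonin genes tested 3 rose and 2 fell (1 and 1 with the offset), shares under those of all genes. Of 14 genes of neurotrophins and their receptors 0 rose and 1 fell, and with the offset 0 rose and 4 fell, where 15.9% of all genes fell.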

How the data were processed

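The deposited table holds raw read counts per gene, and per the submitters' processing notes the authors counted reads with featureCounts on GRCz10 (danRer10). Aligner, versions, strand setting and the treatment of reads with several alignments are not given in the sources used here, so near-identical genes such as the her4 genes, overlapping genes and antisense pairs are uncertain. Per the labels, cDNA was primed with poly-dT and amplified, then sheared and sequenced as 75 bp single-end reads. Of 31388 gene identifiers 25925 had a symbol in a name table, often in the human spelling, and 4151 share it with another gene, told apart here by chromosome. Coordinates and exon lengths are those of the deposited table.

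Counts of all 8 libraries (19242851 to 26582271 in total) were fitted with edgeR 4.0.16 in R 4.3.3: TMM factors (0.823 to 1.18), filterByExpr (20508 genes kept, 10880 removed), 4 group means, a robust quasi-likelihood fit with 4 residual degrees of freedom, two-sided tests and Benjamini-Hochberg adjustment over all genes tested. The SE is the size of the log2 fold change divided by the square root of F. With 2 libraries a side a permutation test cannot reach a low p. Replicates differed by more than counting error (chi-square per gene 2.77 to 4.94). Equal replicate numbers were not treated as pairs: nothing in the labels links them, and deviations from the group means correlated between groups by -0.0106 to 0.00662 across genes. Alternatives used DESeq2 1.42.0, limma 3.58.1 (voom), other scalings, no filter and the GFP-positive libraries alone. Others used a replicate block, a length trend offset or left out 1 library. The offset was a lowess on log length of each library's log2 level minus the gene's mean over all 8 libraries. It therefore also took up length trends between the fractions. The fits were tested on simulated counts.

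Genes were named by a rule: among well expressed genes that passed in every fit without a GFP-positive library and did not overlap between groups, the 12 largest rises and falls by fold and the 8 by CPM; the 8 largest of each in the GFP-negative-high class with at least 5 CPM in a GFP-positive group; up to 4 passing members of each list, of which a part is described; the genes of the study question; and NR4A3 and FOSL2, added after their values were seen. Of the genes so named, 1 is not reported here. The genes, lists and classes were chosen with earlier results of these data known.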

Additional observations from a re-analysis of the deposited data

Results flagged for a closer look

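The IL4 change differed between GFP-positive and GFP-negative cells for 3843 genes by the interaction test (adjusted p under 0.05, edgeR). Among 136 of the genes described above, all but adcyap1b, the test passed for 107, and for 43 of them the changes differed by at least 2-fold. Most were named for a large or precise change in GFP-positive cells. Of the 3682 well expressed genes that changed, 1722 passed the interaction test. The 107 of 136 is therefore not to be set against the 18.7% of all genes. The values below are the log2 change after IL4 in GFP-positive cells minus that in GFP-negative cells, each from 2 libraries a group.

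Among genes that rose in GFP-positive cells, the difference was 2.09 for ldlra, 1.39 for DHX58, 2.26 for c4, 1.37 for ST8SIA2, 1.98 for SVEP1 and 1.45 for si:dkey-183j2.10. It was 3.05 for ADAMTS8, 2.81 for MYO18A, 1.2 for pbxip1b, 1.23 for LEF1, 1.13 for CCND1, 2.02 for HMGCS1, 1.15 for MYLIP and 1.64 for stat6, whose changes had opposite signs in the fractions. Further values were 1.37 for SP5, 1.26 for DCLK1, 1.06 for HAPLN4, 1.54 for slc12a5a, 1.11 for pcbp3, 1.38 for POU4F2 and 1.11 for RASGRP3. For il4r.1, which did not pass in GFP-positive cells and fell in GFP-negative ones, it was 1.88.

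Among genes that fell in GFP-positive cells, the difference was -4.24 for oxt, -1.23 for RPE65, -1.11 for rlbp1b, -1.44 for SLC6A2, -1.20 for wu:fj16a03, -1.17 for hsp70.1, -1.78 for ARR3 and -1.78 for NPY. It was -2.57 for RGR, -1.21 for cspg5b, -1.42 for DUSP2 and -1.07 for GADD45A, which rose in GFP-negative cells. Values for genes without a call in GFP-negative cells included -1.86 for GPR19, -2.05 for ESM1, -1.18 for her8a, -1.50 for sst1.2 and -1.09 for HTR1A. The fall was larger in GFP-negative cells for NR2E3 (1.81), mfge8a (1.09), aanat2 (2.40) and TPH2 (1.12).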

How the results depend on the processing

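Of the genes described, 136 were followed here, all but adcyap1b. Of these, 125 kept their direction and their side of the threshold in all 16 alternatives, and the replicate block changed no call among the 136. Well expressed genes named by fold or CPM had to pass without each GFP-positive library, and list members had to pass the main fit. The 125 is therefore in part set by the choice of genes. The signs of il4r.1 (-0.101 with the length trend offset) and NGFR of chromosome 3 (0.001 with library totals), neither of which passed, reversed. DESeq2 ended the calls of ADAMTS8 (1.48) and RASGRP3 (1.21). The count of changed genes in GFP-positive cells lay between 4741 and 6144 over the alternatives, with 5679 under the replicate block and 5341 in DESeq2. Among well expressed genes it ran from 2513 (at least 30 CPM) to 4034 (at least 5 CPM), with 3605 under the replicate block. The GFP-negative-high count of 468 was 213 with the GFP-positive libraries alone, a fit with 2 residual degrees of freedom. Other limits of the class hold other genes, and the count was 885 at 4-fold, 174 at 16-fold and 295 with 8-fold required after each injection. Without 1 library the count of changed genes was 4741 to 5647, of well expressed genes 3078 to 3629 and of GFP-negative-high genes 391 to 455. The interaction count of 3843 was 3598 under the replicate block and 2515 to 3898 without 1 library, the lowest without IL4 GFP-negative replicate 1. Leaving out any GFP-positive library moved the share of rises from 48.3% to between 39.9% and 40.5%, and the length offset to 35.7%; the cause was not tested.

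Levels under 5 CPM rest on few reads, and a missing call there was not a sign of no change. A fit without 1 library assumes that the lone library varies like the other groups. The median shift of all fold changes in GFP-positive cells was -0.064 to -0.052 in the fits without a GFP-positive library. With RLE size factors it was -0.053. The SE does not contain such a shift, which was larger than the SE of some small changes. BTG1, at 0.305 with an SE of 0.035, lay at 0.222 to 0.274 without a GFP-positive library.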
